A study of Homo sapiens with 12 samples.

Results

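H3K27ac, acetylation of histone H3 at lysine 27, was examined at 9 genes of the mesenchymal state in MDA-MB231, a human breast cancer cell line. The genes were the structural and matrix genes VIM and FN1, the adhesion genes CDH2 and CD44, and the transcription factor genes ZEB1, ZEB2, SNAI1, SNAI2 and TWIST1. They were chosen by name, with earlier results of these data known. A peak was taken as theirs when it lay within 5 kb of the gene's start site in hg19, placed to the nearest kb, or over the gene body. Of the 659281 peaks on chromosomes 1 to 22 and X in the 9 deposited lists, 508 met this rule, with 45 to 89 in each library. Cells were infected with lentivirus carrying EV-control, an shRNA against CDK19 or an shRNA against CDK8, and were grown for 96 h. The 3 groups, called Control, CDK19KD and CDK8KD in the titles, had 3 native (unfixed) ChIP-seq libraries each, from 250000 to 500000 cells. The 3 Input samples were not analysed here. All groups were infected cells of the same line, no uninfected group was used here, and the level of CDK8 or CDK19 in these cells was not measured here, so the extent of knockdown is unknown.

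In epithelial-mesenchymal transition (EMT), epithelial cells lose cell-cell junctions and take on the shape, matrix and motility of mesenchymal cells. Factors of the SNAI, ZEB and TWIST families drive the programme, and SNAI and ZEB factors bind E-boxes with the core CAGGTG and repress CDH1, the gene of epithelial E-cadherin. VIM encodes the intermediate filament vimentin, FN1 the matrix protein fibronectin, CDH2 the adhesion protein N-cadherin, and CD44 a receptor for hyaluronan. MDA-MB231 is widely used as a mesenchymal-like, basal-type breast cancer line. CDK8 and CDK19 are related kinases of the Mediator complex, which links transcription factors to RNA polymerase II, and H3K27ac marks active promoters and enhancers.

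The lists held 62669 to 87530 peaks and covered 262 to 318 Mb. The covered length was 263 to 316 Mb in Control, 262 to 271 Mb in CDK19KD and 292 to 318 Mb in CDK8KD. Peaks with a −log10 q of at least 5 made up 17.1% to 43.9% of a list, so the lists differed in how many weak peaks they hold. Read depth is unknown, and values carry no counting error. Fold enrichments and −log10 p values are the authors' own for each peak and are used only to describe and rank peaks within their list. The measure compared between groups was the covered share, the percentage of a window that a library's peaks cover. Nothing in the labels says that the libraries came from separate cultures, so p-values measure only the spread between libraries, which may be technical.

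The line's label was checked against marker genes. All 9 libraries had a peak within 5 kb of the starts of VIM, ZEB1, CD44, SPARC and AXL, the 5 mesenchymal genes set for this check. Other genes of the EMT programme had one in fewer libraries: 8 at TWIST1, 7 at TAGLN, 6 at CDH2, 4 at MMP2, 2 at PRRX1 and 0 at TWIST2 and ACTA2. No library had one at ESR1 or PGR, the genes of the oestrogen and progesterone receptors that mark luminal breast cells. GATA3, another luminal gene, ranged from no peak in 3 libraries to a covered share of 81.7%, and FOXA1 had a peak in 3 libraries. In each group replicate 3 had the highest GATA3 share, at 51.0% in Control, 44.0% in CDK19KD and 81.7% in CDK8KD. Epithelial genes were not all bare: 6 of 8 had a peak within 5 kb of the start in all 9 libraries. A peak there thus did not by itself set the mesenchymal genes apart. By covered share, KRT19 (keratin 19) was at 88.3% to 100% and CLDN7 (claudin 7) at 68.0% to 84.3%.

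Promoter sequences put the members' acetylation beside their base composition. RefSeq promoters (GRCh38.p14, 250 bases before to 50 after a start) were found by symbol for 6 of the 9 members, VIM, ZEB1, ZEB2, FN1, CDH2 and CD44. The GRCh38.p14 positions are not those of hg19, the build of all peaks below. Shown are VIM, ZEB1 and FN1, whose starts were acetylated in every library, and CDH2, whose start was nearly bare. Capitals mark CAGGTG, the E-box of SNAI and ZEB factors, and GGGCGG, the GC box of SP1, on either strand (CACCTG and CCGCCC), with overlapping matches kept.
VIM, chr10:17227991-17228290, + strand: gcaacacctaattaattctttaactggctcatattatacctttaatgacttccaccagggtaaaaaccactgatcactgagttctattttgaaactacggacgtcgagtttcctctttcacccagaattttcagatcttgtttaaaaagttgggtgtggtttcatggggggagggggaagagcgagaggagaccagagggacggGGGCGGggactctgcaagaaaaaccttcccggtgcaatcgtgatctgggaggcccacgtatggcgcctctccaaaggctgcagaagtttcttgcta
ZEB1, chr10:31318966-31319265, + strand: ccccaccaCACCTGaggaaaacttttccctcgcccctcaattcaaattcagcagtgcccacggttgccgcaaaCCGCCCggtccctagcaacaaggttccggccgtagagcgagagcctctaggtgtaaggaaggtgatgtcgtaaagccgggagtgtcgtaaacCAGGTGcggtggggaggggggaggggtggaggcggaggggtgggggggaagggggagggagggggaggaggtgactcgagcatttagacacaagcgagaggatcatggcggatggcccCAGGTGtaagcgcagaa
FN1, chr2:215436019-215436318, − strand: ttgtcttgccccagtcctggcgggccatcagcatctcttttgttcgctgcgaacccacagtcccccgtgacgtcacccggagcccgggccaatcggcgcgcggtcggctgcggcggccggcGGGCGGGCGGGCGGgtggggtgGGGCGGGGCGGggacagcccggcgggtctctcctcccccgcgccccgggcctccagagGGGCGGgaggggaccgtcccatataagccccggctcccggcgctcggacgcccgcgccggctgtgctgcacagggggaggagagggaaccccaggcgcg
CDH2, chr18:28177081-28177380, − strand: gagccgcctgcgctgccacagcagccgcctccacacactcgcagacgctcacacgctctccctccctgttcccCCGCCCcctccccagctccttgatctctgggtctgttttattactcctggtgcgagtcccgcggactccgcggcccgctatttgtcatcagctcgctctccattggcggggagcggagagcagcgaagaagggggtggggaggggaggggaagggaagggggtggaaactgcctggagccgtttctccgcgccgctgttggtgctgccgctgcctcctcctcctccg
The ZEB1 promoter, 1 of 7 that RefSeq lists for that gene, held 3 E-boxes, the most of the 7: another held 1 and the other 5 held 0. The 3 promoters shown of other genes held 0. An E-box stood in 20.6% of the 35116 promoters of the table and a GC box in 44.95%. GC boxes numbered 6 in FN1 and 1 each in VIM, ZEB1 and CDH2. CG dinucleotides numbered 38 in FN1, 23 in CDH2, 17 in ZEB1 and 10 in VIM, beside a median of 14 over the table. RefSeq lists a second CDH2 promoter, not shown, with 4 CG dinucleotides and 0 GC boxes. The ZEB1 promoters not shown held 7 to 35 CG dinucleotides and 0 to 3 GC boxes. Such matches describe these windows only and are not sites of binding.

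At 7 of the 9 genes all 9 libraries had a peak within 5 kb of the start, the exceptions being TWIST1 and CDH2. At 6 genes all 9 had a peak within 0.5 kb of it, since SNAI1 had one there in 8 libraries. Over the genome, 17.6% of the 303554 windows of 10 kb carried a peak in all 9 libraries. Those windows form a fixed grid and are not centred on gene starts. Of the 42 gene starts examined here, these 9 among them, 29 had a peak within 5 kb in all 9 libraries. At 5 genes, VIM, ZEB1, SNAI2, FN1 and CD44, at least 50% of the 10 kb around the start was covered in every library, which held for 3.62% of windows genome-wide. It also held for 16 of the 42 gene starts, with 9 of 21 further EMT genes and 2 of 8 epithelial genes among them. The 9 genes form 3 levels by their mean covered share over the 9 libraries. CD44 stood at 97.7% ± 3.06 (SD, n = 9), SNAI2 at 96.0% ± 6.69, FN1 at 90.8% ± 4.23, VIM at 90.7% ± 7.86 and ZEB1 at 86.9% ± 8.54. Each of these 5 differed from its neighbour in the order by less than the larger SD of the pair. SNAI1 at 50.7% ± 22.97 and ZEB2 at 47.5% ± 5.99 lay between, within each other's spread. TWIST1 at 12.4% ± 8.11 and CDH2 at 6.68% ± 7.52 were lowest, again within each other's spread. Among the 78091 windows tested, these means ranked from percentile 6.3 (CDH2) and 21.3 (TWIST1) to 97.7 (CD44).

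**Figure D1:**
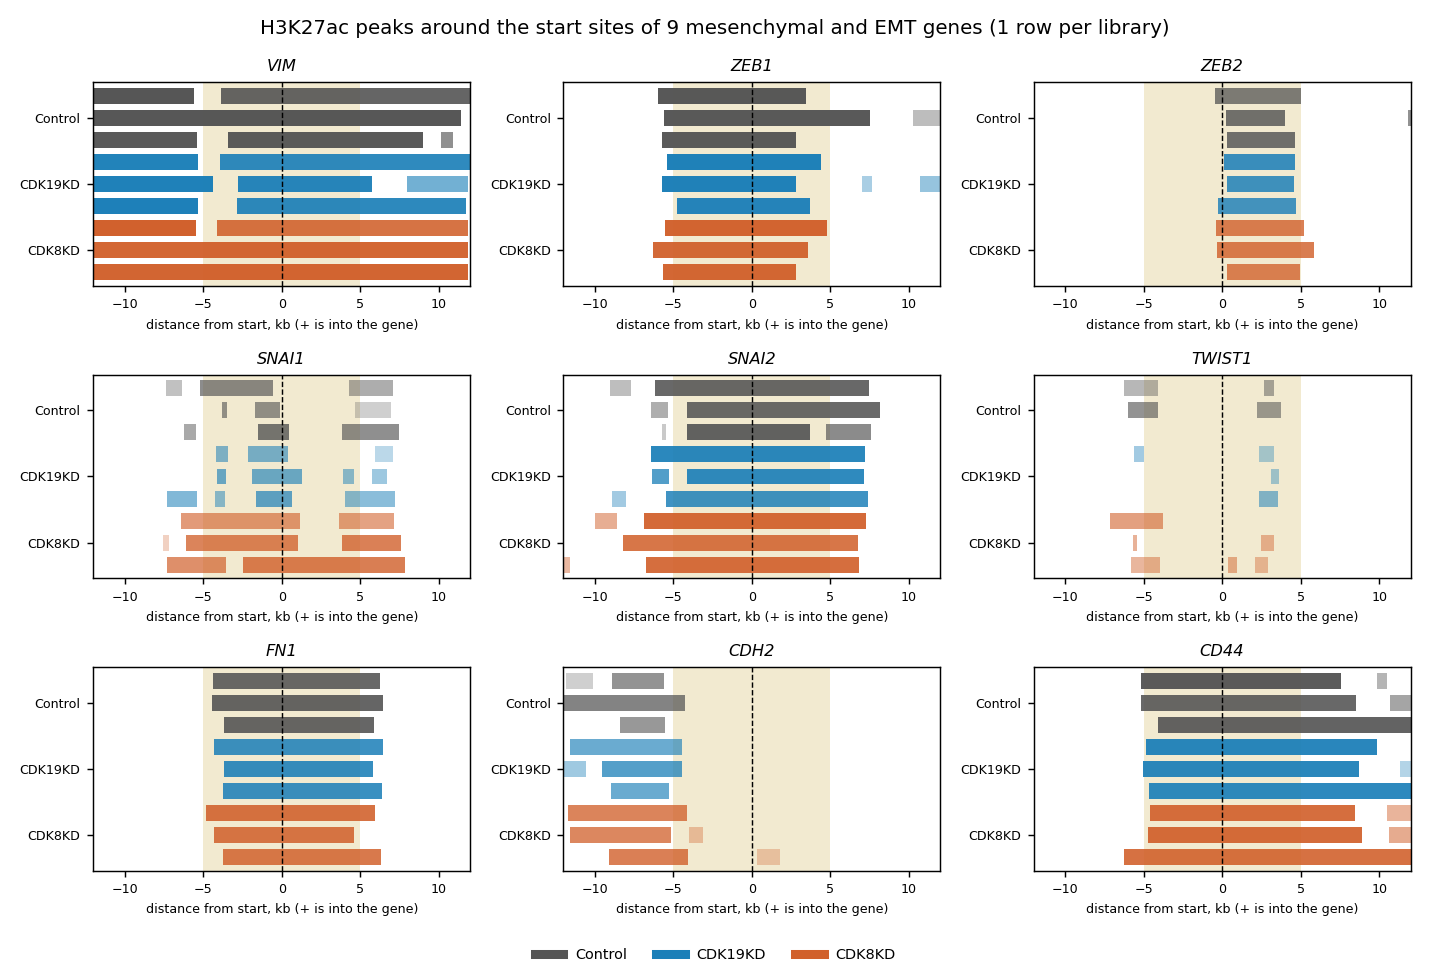
Peaks around the start of each of the 9 genes (x axis, kb from the start in the direction of transcription; the rows are the libraries, replicates 1 to 3 from top to bottom in each group). Bars are deposited peaks, darker for a higher percentile of −log10 p within their own list. VIM, ZEB1, SNAI2, FN1 and CD44 show wide bars over the start in all 9 libraries, ZEB2 a bar on its transcribed side, and TWIST1 and CDH2 little on the start itself.

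Of the 2 matrix and filament genes, VIM had the wider start peak by median width. Its start window was covered at 88.6%, 100% and 84.2% in Control replicates 1, 2 and 3, at 89.1%, 84.2% and 78.8% in CDK19KD, and at 91.4%, 100% and 100% in CDK8KD. The peak on the VIM start was 8.50 to 43.6 kb wide (median 16.03 kb). A single peak of 42.02 to 43.6 kb spanned the locus in Control replicate 2 and in CDK8KD replicates 2 and 3, where the other 6 libraries had separate peaks on and upstream of the start. In these 6 the upstream peak was the stronger, between percentiles 96.1 and 99.1, and in 5 of them it ended over 5 kb before the start, outside the window. Merged over the libraries, the region ran from 32.2 kb upstream to 12.2 kb past the start (chr10:17237840-17282179). Other genes were listed only for the start window and the gene body, so the part further upstream is not assigned to VIM. The peak on the start had a fold enrichment of 4.82 to 6.22 and lay between percentiles 84.2 and 98.3 of its list. FN1 was covered at 93.9%, 94.6% and 86.5% in Control, 93.4%, 86.4% and 87.5% in CDK19KD, and 97.9%, 89.4% and 87.5% in CDK8KD. Its start peak was regular, 8.94 to 10.9 kb wide in every library, with a fold of 4.06 to 5.43. The groups overlapped at FN1, and VIM was lower in all 3 CDK19KD libraries than in any CDK8KD library.

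The receptor gene CD44 and the factor gene SNAI2 were the most fully covered by mean share. It reached 100%, 100% and 90.8% in Control, 98.7%, 100% and 96.5% in CDK19KD, and 96.1%, 97.0% and 100% in CDK8KD. The peak on its start was 12.8 to 21.9 kb wide, with a fold of 3.80 to 6.81. SNAI2, the gene of Slug, reached 100%, 91.3% and 81.2% in Control, 100%, 91.3% and 100% in CDK19KD, and 100% in each CDK8KD library. Its domain exceeded the gene itself: the start peak was 7.86 to 15.0 kb wide, within chr8:49825871-49842208, and covered 92.7% to 100% of the gene body. The groups overlapped at both genes.

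ZEB1 and ZEB2, related zinc-finger repressors, differed in where the mark lay. ZEB1 was covered at 84.3%, 100% and 78.2% in Control, 94.3%, 78.1% and 85.0% in CDK19KD, and 97.8%, 85.9% and 78.3% in CDK8KD. Its start peak reached 4.78 to 6.28 kb upstream and was among the strongest of each list, between percentiles 92.8 and 97.7, with a fold of 5.06 to 7.94. ZEB2 was covered at 54.7%, 37.3% and 43.2% in Control, 45.3%, 42.7% and 50.1% in CDK19KD, and 54.1%, 53.3% and 46.5% in CDK8KD. The ZEB2 peak was narrower, 3.73 to 6.20 kb, and lay almost wholly on the transcribed side. It ended 4.02 to 5.86 kb into the gene and began no more than 0.473 kb upstream in any library. Its fold was 3.49 to 5.30 and its percentile 66.9 to 81.6. The groups overlapped at both genes.

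TWIST1, a basic helix-loop-helix factor gene, had no peak on its start in 8 of the 9 libraries. Its window was covered at 15.2%, 24.8% and 0% in Control, 9.92%, 4.91% and 11.9% in CDK19KD, and 12.3%, 8.29% and 23.9% in CDK8KD. The cover came from weak flanking peaks with a fold of 2.21 to 2.89. In 7 libraries these lay 2.12 to 3.77 kb past the start (chr7:19153235-19154884) and in 5 libraries 3.77 to 7.14 kb upstream (chr7:19160769-19164143). CDK8KD replicate 3 alone had a peak within 0.5 kb of the start, 525 bp wide. CDH2 was covered at 0%, 7.38% and 0% in Control, 5.27%, 5.45% and 0% in CDK19KD, and 8.61%, 9.31% and 24.1% in CDK8KD. Here too the only peak within 0.5 kb of the start was in CDK8KD replicate 3, and it was weak, with a fold of 2.12. A stronger peak upstream of CDH2, with a fold of 2.86 to 3.95, had its nearer edge 4.05 to 4.47 kb before the start in 5 libraries. The other 4 libraries had this peak too, with the nearer edge 5.13 to 5.58 kb before the start, just outside the window. The CDH2 shares of 0% thus depend on where that peak ends relative to the window. The 9.31% of CDK8KD replicate 2 came instead from a separate weak peak of 931 bp, 3.10 to 4.03 kb before the start (fold 2.23). In CDK8KD replicate 3 the weak peak at the start, 1463 bp wide, gave part of the 24.1%. All 3 CDK8KD libraries exceeded every other library at CDH2.

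**Figure D2:**
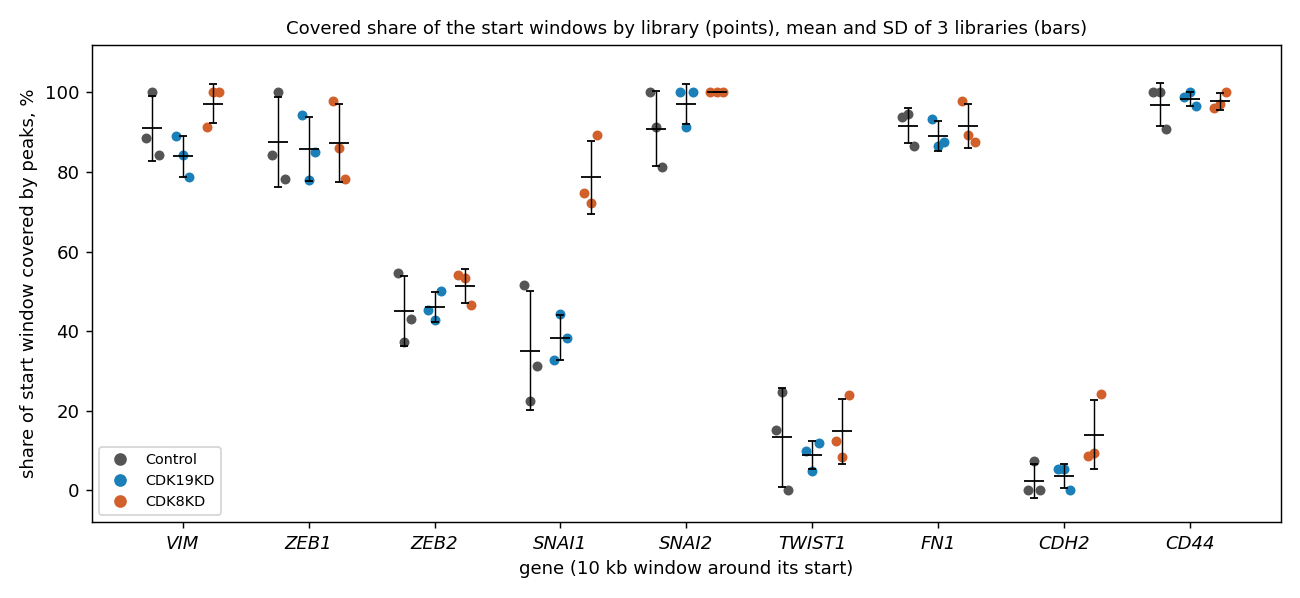
Covered share of the 10 kb around each start (y axis, %) for the 9 genes. Points are libraries coloured by group, horizontal marks are group means and vertical bars are the SD of the 3 libraries. At SNAI1 the 3 CDK8KD libraries lie at 72.1% to 89.2%, above the Control and CDK19KD libraries at 22.4% to 51.6%, and at the other genes the points of the groups lie closer together.

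Over gene bodies the mark ranged from complete to nearly absent. The short genes VIM and SNAI2 were covered at 77.6% to 100% and 92.7% to 100%. CD44 was covered along most of its 94 kb, at 56.1%, 84.2% and 98.5% in Control, 59.3%, 75.4% and 80.6% in CDK19KD, and 71.5%, 80.9% and 96.3% in CDK8KD. In each group the share of CD44 rose from replicate 1 to replicate 3. Merged over the libraries the 86 peaks of CD44 made 1 region of 108258 bp (chr11:35153759-35262016). The authors' caller divided it differently in each library, into 2 to 13 peaks over the body, the widest of 84.4 kb in Control replicate 3. The long genes were mostly uncovered, with medians of 11.8% in ZEB2, 13.3% in ZEB1, 16.1% in FN1 and 25.8% in CDH2. TWIST1 was covered at 0% in 8 libraries and 26.2% in CDK8KD replicate 3.

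CDH2, nearly bare at its start, held the peak with the highest fold enrichment in any of the 9 genes. It lay between 55.1 and 70.0 kb into the gene, in a region of 23799 bp that every library held (chr18:25687049-25710847). Weaker peaks filled the nearer part of that region, from 46.2 kb. Fold enrichment of the strongest peak there was 8.66, 6.63 and 6.63 in Control replicates 1, 2 and 3, 9.23, 7.76 and 10.1 in CDK19KD, and 7.94, 5.83 and 7.57 in CDK8KD. By −log10 p this peak ranked between 66 and 2235 in its own list, between percentiles 97.0 and 99.9. Its median percentile was 99.4, beside 95.6 for the peak on the ZEB1 start and 93.0 for that on the VIM start. Its values belong to the scale of each list, so the groups are not compared on them. In all, 6 regions of CDH2 were held by all 9 libraries, and the other 5 lay 107 to 215 kb into the gene with median folds of 2.59 to 3.91. CDH2-AS1 overlaps the CDH2 body, and peaks carry no strand, so the genes there cannot be told apart.

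**Figure D3:**
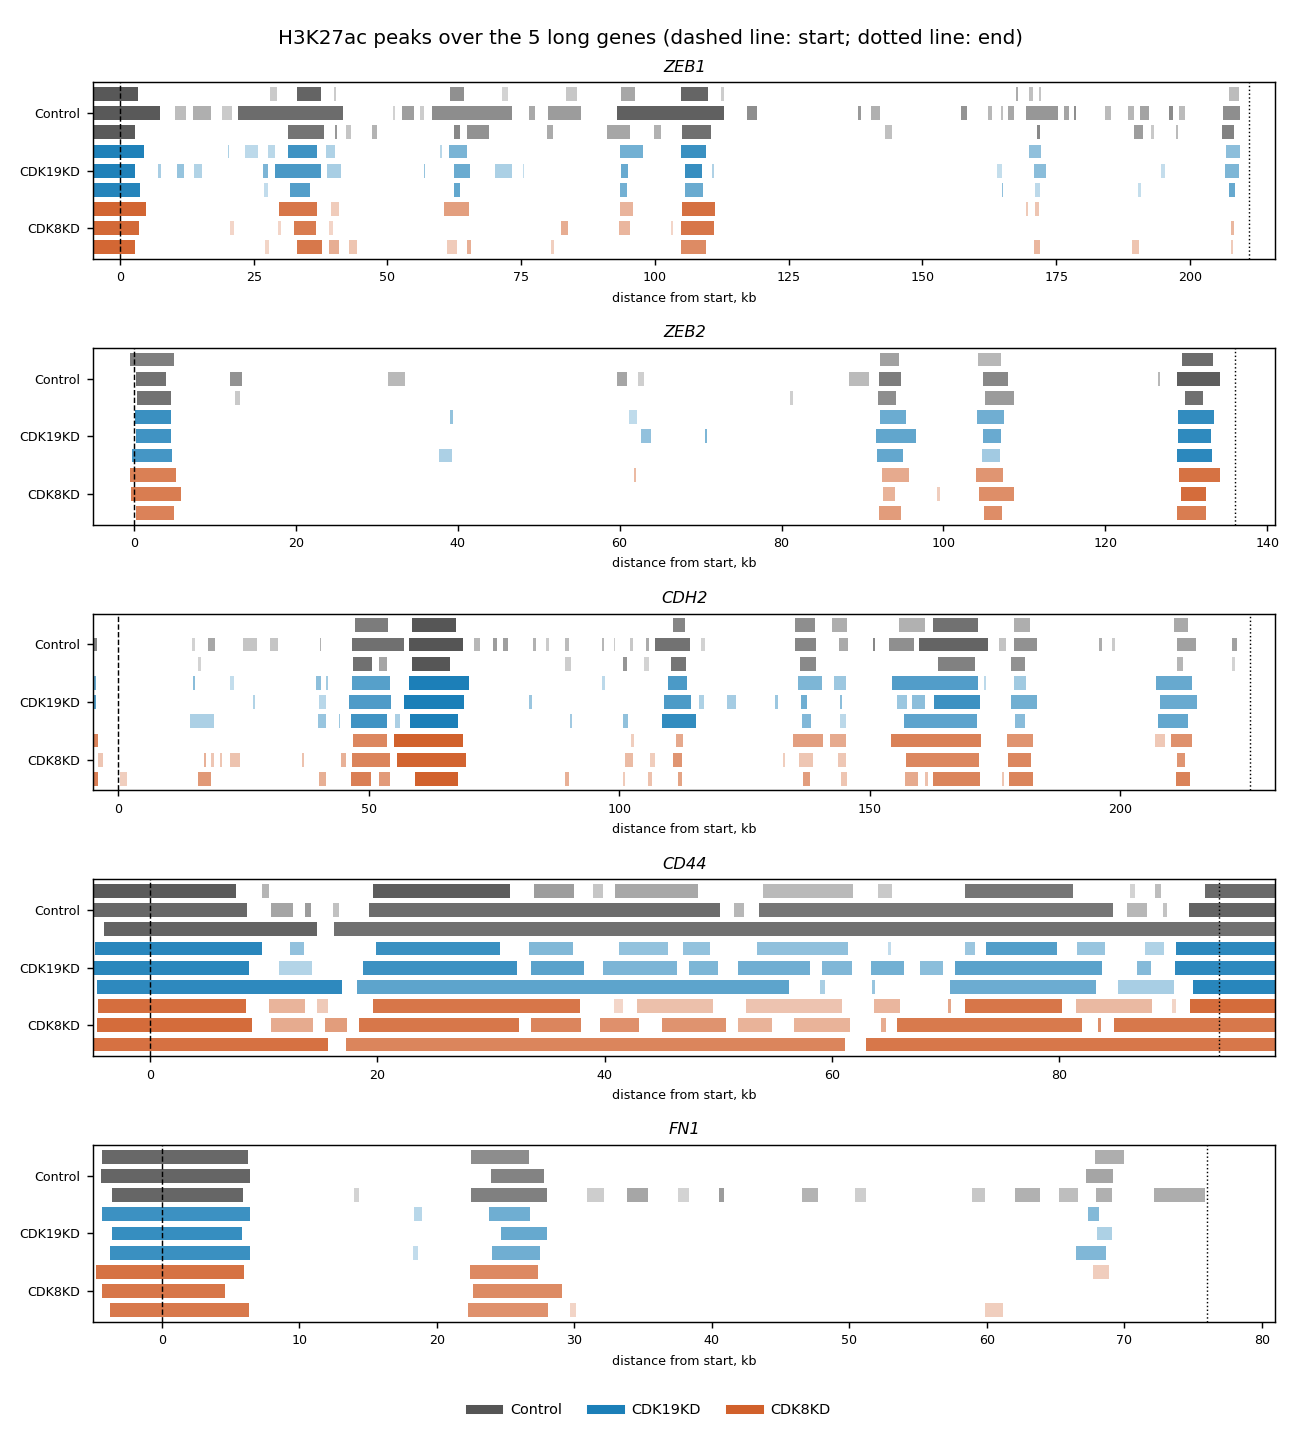
Peaks along the long genes ZEB1, ZEB2, FN1, CDH2 and CD44 (x axis, kb from the start in the direction of transcription; the rows are the libraries, replicates 1 to 3 from top to bottom in each group). Bars are deposited peaks, darker for a higher percentile of −log10 p within their own list. CDH2 has its darkest bars between 55.1 and 70.0 kb into the gene in all 9 libraries, and CD44 is covered along most of its length.

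The other long genes had fewer shared regions inside. ZEB1 had 3 regions held by all 9 libraries, at the start (chr10:31601724-31615635) and 21.97 to 41.6 kb and 91.1 to 113 kb into the gene. ZEB2 had 4, of which the strongest was not at the start: a region 129 to 134 kb into the gene (chr2:145143844-145149203) had folds of 3.67 to 5.99 and a median percentile of 86.6, beside 76.2 for the start region. FN1 had 2, at the start and 22.3 to 29.1 kb into the gene (chr2:216271917-216278728). Regions held by 1 library only were frequent, 22 of 36 in ZEB1, 21 of 40 in CDH2, 11 of 16 in FN1 and 8 of 16 in ZEB2. Control replicate 2 listed 28 peaks over ZEB1 and 30 over CDH2, where the other libraries listed 8 to 18 and 9 to 18, and its share of ZEB1 was 49.1%, beside 7.95% to 17.5%. Control replicate 3 listed 14 peaks over FN1, where the others listed 2 to 4, and covered 35.2% of it, beside 13.4% to 18.2%. These are the 2 longest lists of the study, and the part of list length in these values was not tested.

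Knockdown of CDK19 was compared with Control to ask how acetylation at these genes differs in cells given an shRNA against that kinase. None of the 9 start windows was called by limma (adjusted p under 0.05 over all 78091 windows, 0.0781% of which were called), and 0 of 9 had an unadjusted p under 0.05, beside 9.92% of all windows. The lowest limma adjusted p was 0.644, at VIM, with 84.0% ± 5.16 (SD, n = 3) in CDK19KD, 90.9% ± 8.14 in Control and a difference of −6.94 percentage points (SE 4.61). SNAI1 differed by 3.36 points (SE 8.70) and ZEB1 by −1.72 (SE 7.18), and the sign of each changed under some alternatives (−2.98 to 16.4 points and −6.37 to 7.15). In none of the 9 windows did the CDK19KD libraries all lie on one side of the Control libraries, which 13.8% of all windows tested did. The median difference over the 9 genes was 0.97 points, and over all windows −2.26.

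Knockdown of CDK8 was compared with Control in the same way, and SNAI1, the gene of the repressor Snail, had the largest difference. Its window was covered at 51.6%, 22.4% and 31.2% in Control and at 74.7%, 72.1% and 89.2% in CDK8KD, with 32.7%, 44.2% and 38.3% in CDK19KD. Every CDK8KD library thus lay above every library of the other groups. The group means were 78.7% ± 9.22 in CDK8KD, 35.1% ± 15.0 in Control and 38.4% ± 5.75 in CDK19KD (SD, n = 3). The difference from Control was 43.6 percentage points (SE 8.70), at percentile 99.3 of all windows tested, and it was not called (limma unadjusted p = 0.0012, adjusted p = 0.0806). Over the 15 alternatives the limma adjusted p ran from 0.0292 to 0.75. The value of 0.0292, with a difference of 51.9 points, came without Control replicate 1. With only peaks of −log10 q of at least 5, or only the 20000 strongest of each list, the difference was 24.9 points (limma adjusted p 0.75 and 0.641). Of the Control and CDK8KD libraries, only CDK8KD replicate 3 had a SNAI1 peak among its 20000 strongest (rank 18571). In the others the strongest SNAI1 peak ranked 20197 to 43839, so the 24.9 points came from CDK8KD replicate 3. The CDK8KD lists cover more of the genome, and with shares scaled by each list's total the difference was 39.8 points (limma adjusted p = 0.123).

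The peaks behind the SNAI1 values were of modest strength and differed in width. In Control and CDK19KD the 5 peaks on the start were 1610 to 3195 bp wide, and in Control replicate 1 a peak of 4620 bp ended 0.574 kb before the start. In CDK8KD the start peaks were 7560 bp (chr20:48593582-48601141), 7148 bp (chr20:48593909-48601056) and 10291 bp (chr20:48597531-48607821). The fold of the start peaks was 2.45 to 3.72 over the 8 libraries with a peak on the start. Their percentile within their own list was 43.4 to 73.3 in Control and CDK19KD. In CDK8KD it was 51.1, 69.7 and 74.7, so the groups overlapped in the rank of these peaks. An exact two-sided permutation test over all 280 divisions into 3 groups, chosen after the data had been seen, gave p = 0.0286 for the SNAI1 window, unadjusted over 9 genes. Within replicate numbers, taken to pair the libraries, the exact p was 0.0833 (36 arrangements).

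CDH2 was the other window in which CDK8KD and Control did not overlap, at 14.02% ± 8.77 against 2.46% ± 4.26 (SD, n = 3). Weak peaks gave all of that cover in CDK8KD replicate 2 and part of it in replicate 3. The difference of 11.6 points (SE 4.91) had a limma unadjusted p of 0.0475 and an adjusted p of 0.335. In all, limma called 0 of 9 windows, beside 0.717% of all windows, and 2 of 9 had an unadjusted p under 0.05, beside 14.7%. A share cannot exceed 100%, and CD44, FN1, VIM, SNAI2 and ZEB1 had Control means of 87.5% to 96.9%. These windows had little room for a gain, so the lack of a call there does not show that acetylation was unchanged. The 2 windows that did not overlap between groups, both higher in CDK8KD, compare with 12.8% of all windows that did not overlap in that direction. The remaining 7 genes had limma adjusted p values of 0.397 to 1.0. The median difference over the 9 genes was 6.20 points, and over all windows 0.88.

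**Figure D4:**
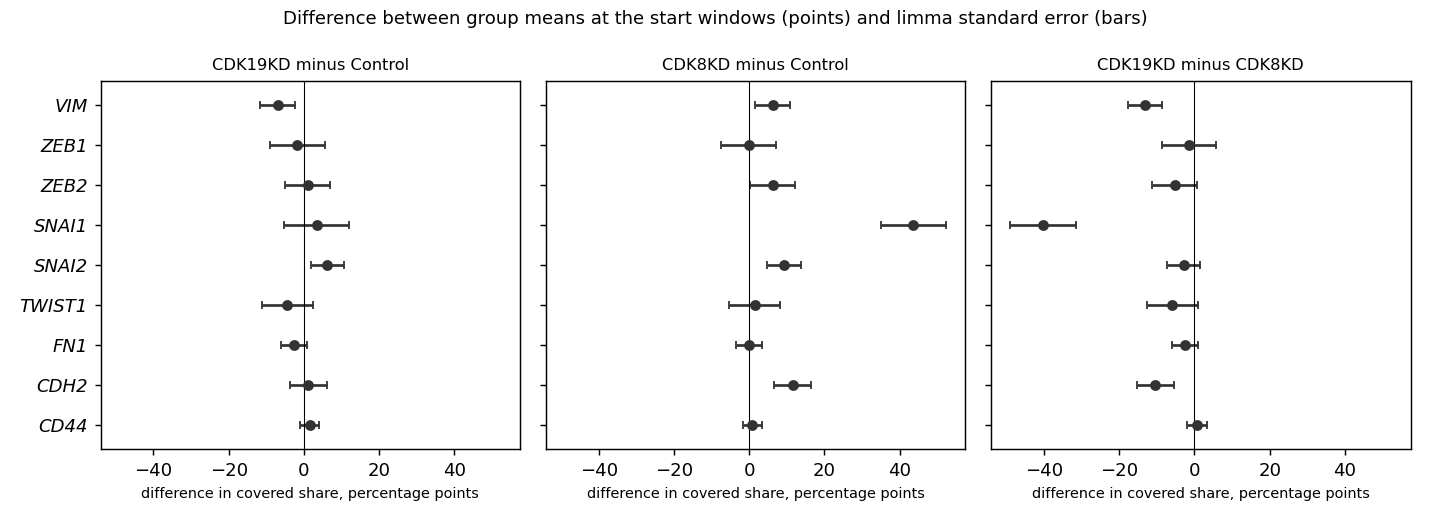
Difference in covered share (x axis, percentage points) at the start of each of the 9 genes for the 3 comparisons, with bars of 1 standard error from limma. SNAI1 stands at 43.6 points in CDK8KD against Control and at −40.3 in CDK19KD against CDK8KD, and at 3.36 in CDK19KD against Control.

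The knockdowns were then compared with each other. The SNAI1 window was 40.3 percentage points lower in CDK19KD than in CDK8KD by mean share (a difference of −40.3, SE 8.70, limma adjusted p = 0.0851, with 0.0679 to 0.815 over the alternatives). VIM was at 84.0% in CDK19KD and 97.1% in CDK8KD, a difference of −13.1 (SE 4.61, limma adjusted p = 0.245). With shares scaled by each list's total, the VIM difference was −2.13 (limma adjusted p = 0.939). VIM stood at 100% in CDK8KD replicates 2 and 3, and a share at that limit cannot grow with a longer list. The part of list length in the VIM difference was not tested. CDH2 was at 3.57% and 14.02%, a difference of −10.4 (SE 4.91, limma adjusted p = 0.387). In these 3 windows the groups did not overlap, where 15.4% of all windows lay lower in CDK19KD without overlap. None of the 9 was called, beside 0.224% of all windows called higher and 0.780% called lower, and 2 of 9 had a limma unadjusted p under 0.05, beside 14.6% of all windows. Over all windows the calls were 175 higher and 609 lower, or 129 and 209 with scaled shares. This comparison shares the CDK8KD libraries with the one above, so its SNAI1 value is no separate evidence.

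Inside the gene bodies, 53 of the 82 windows of 10 kb had enough cover to be tested. By limma 0 of 53 were called in each comparison, with an unadjusted p under 0.05 in 3 windows for CDK19KD against Control, 6 for CDK8KD against Control and 5 for CDK19KD against CDK8KD. Over all windows those shares were 9.92%, 14.7% and 14.6%. Those with the smallest p are named. A window inside FN1 (chr2:216270001-216280000) was covered at 29.4%, 33.4% and 34.3% in CDK19KD and at 49.3%, 64.6% and 62.7% in CDK8KD, with 42.2%, 39.0% and 56.2% in Control (difference −26.5, SE 6.62, limma adjusted p = 0.118). The CDK19KD libraries were thus below all others there. A window at the end of ZEB1 (chr10:31810001-31820000) was at 0%, 5.29% and 5.46% in CDK8KD and at 19.1%, 31.8% and 22.8% in Control (difference −21.0, SE 5.48, limma adjusted p = 0.143). A window of CDH2 (chr18:25710001-25720000) was at 16.7%, 22% and 24.0% in CDK19KD and at 0%, 6.08% and 1.63% in Control (difference 18.3, SE 4.85, limma adjusted p = 0.298).

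The covered share of each whole body was tested over the 3 groups with an exact two-sided permutation test over 280 splits, with p-values unadjusted over the 9 genes. SNAI1 had the lowest p, 0.0321 (57.6% of the variance between groups), and the exact p within replicate numbers was 0.111. Its body was covered at 14.6%, 6.12% and 31.9% in Control, 7.84%, 39.1% and 31.3% in CDK19KD, and 49.5%, 44.2% and 100% in CDK8KD. The CDK8KD libraries lay above all others, and the body lies within the start window, so the values repeat the same peaks. Without CDK8KD replicate 3 the exact p was 0.139, and it was 0.0964 without Control replicate 1, 0.104 without Control replicate 2, 0.0679 without CDK19KD replicate 2 and 0.0893 without CDK19KD replicate 3. For FN1 the exact p was 0.207, and within replicate numbers it was 0.0278, the smallest that 36 arrangements can give. The other 7 genes had exact p values of 0.246 to 1.0.

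Further genes of the EMT programme give the members their setting. Of 21 such genes, 16 had a peak near the start in all 9 libraries, and TWIST2 and ACTA2 had none in any. The median of their mean shares was 58.7%, beside 86.9% for the 9 members and 29.4% for all windows tested. By limma 0 of the 18 tested were called in any comparison, with 1, 3 and 4 at an unadjusted p under 0.05 in CDK19KD against Control, CDK8KD against Control and CDK19KD against CDK8KD, where 9.92%, 14.7% and 14.6% of all windows passed that level. Among the 18 tested, 5 lay higher in CDK8KD than in Control without overlap of libraries, beside 12.8% of all windows. In CDK19KD against CDK8KD 6 of them lay lower without overlap, beside 15.4%. None lay the other way in either comparison. The 6 genes that follow were named because their groups did not overlap. FOXC2, a forkhead factor gene, was covered at 39.0%, 37.5% and 51.6% in Control and at 39.5%, 31.8% and 59.0% in CDK19KD. In CDK8KD it was covered at 85.8%, 77.8% and 100%. Like SNAI1 it was highest in all CDK8KD libraries (difference from Control 45.1 points, SE 8.96, limma adjusted p = 0.0794). TGFB1, the gene of the growth factor TGF-beta 1, averaged 46.5% over the Control libraries, 56.2% over CDK19KD and 76.2% over CDK8KD (limma adjusted p = 0.106 for CDK8KD against Control). TGFBI, a matrix gene, had 35.0% in Control and 66.6% in CDK8KD (limma adjusted p = 0.195). For the collagen gene COL1A1 those means were 52.5% and 71.0% (limma adjusted p = 0.351). The matrix protease gene MMP14 had 66.0% in CDK19KD and 95.3% in CDK8KD (limma adjusted p = 0.135), and the protease gene MMP2 had 0% and 23.4% (limma adjusted p = 0.210). Over all 21 genes the mean share was higher in CDK8KD than in Control in 15, lower in 3 and equal in 3. Among 8 epithelial genes 7 were higher too, and the share of all windows that were higher was not counted here. Over the 21 genes the median difference was 3.50 points, beside 0.88 over all windows tested. The most negative difference was at TAGLN, a smooth muscle gene, with means of 30.8% for Control and 3.83% for CDK8KD and overlapping libraries (limma adjusted p = 0.485), and CDH11, a mesenchymal cadherin gene, was lower by mean share as well (difference −5.42). These 2 genes were named after their values were seen. SNAI1 was the only member whose share had an SD of at least 10 points. Of 29 genes compared, COL1A1 followed it most closely over the 9 libraries (Pearson r 0.879), a description over values that come from the same peak lists.

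Of 8 epithelial genes, 6 had a peak near the start in all 9 libraries, with a median of mean shares of 26.8%. CDH1, which SNAI and ZEB factors repress, was covered at 0% in all 3 Control libraries, at 18.4%, 22.9% and 33.8% in CDK19KD, and at 24.2%, 33.8% and 30.8% in CDK8KD. Every knockdown library thus had a peak where no Control library did. By limma CDH1 rose in CDK8KD by 29.6 points (SE 4.52, adjusted p = 0.0421), the 1 call among the 8 genes, beside 0.631% of all windows called higher. That call was lost with the replicate number as a block (limma adjusted p = 0.0541) with scaled shares (0.0731) and with flanks of 2.5 kb (0.400), and in leaving out any library but Control replicate 1, with adjusted p of 0.0501 to 0.137. With the stricter peak sets CDH1 had too little cover to be tested. In CDK19KD the difference was 25.0 points (SE 4.52, limma adjusted p = 0.144), and the CDK19KD and CDK8KD libraries overlapped. The CDH1 peaks were weak and lay mostly away from the start, with 3 of the 6 knockdown libraries holding one on it. ELF3, an epithelial factor gene, averaged 48.4% over the Control libraries, 71.6% over CDK19KD and 83.5% over CDK8KD (limma adjusted p = 0.186 for CDK8KD against Control). OVOL1 and GRHL2, also epithelial factor genes, had 7.70% and 11.1% in Control and 23% and 19.3% in CDK19KD, without overlap (limma adjusted p = 0.426 and 0.559). In that comparison 3 of the 7 epithelial genes tested lay higher without overlap, where 13.8% of all windows did not overlap in either direction. In CDK8KD against Control 2 of the 7 lay higher without overlap, beside 12.8% of all windows. The start windows of VIM, ZEB1, ZEB2, FN1 and CD44 also hold the starts or bodies of VIM-AS1, ZEB1-AS1, ZEB2-AS1, FN1-DT and CD44-DT. LINC01412 and LINC02993 lie in the ZEB2 window too, LOC107986942 in that of SNAI2 and LOC124901597 in that of TWIST1. ATIC overlaps the FN1 body, SPTLC1P1 and LOC100505502 the ZEB1 body, and SNORD164 and CD44-AS1 the CD44 body. Peaks do not tell these genes apart from the members.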

How the data were processed

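Per the labels' protocols, chromatin of unfixed cells was released by enzymes and lysis, pulled down with an H3K27ac antibody and sequenced from Nextera XT libraries. The authors deposited 1 broad peak list per library. The submitters' processing notes name MACS2, deepTools and hg19, without versions, and the aligner, settings, control and depth are not given in the sources used here. Each peak carries a fold enrichment, a linear ratio as deposited, and the −log10 of a p-value and of a q-value, also deposited by the authors. A better enriched or deeper library can list more and wider peaks, and a wide domain can be divided differently in each list.

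Groups came from the sample titles. For each library the covered share was computed in a grid of 10 kb windows of chromosomes 1 to 22 and X and in windows of 5 kb on each side of 42 gene starts. The 78091 windows with at least 5% mean share were tested on all 9 libraries with limma 3.58.1 (lmFit, eBayes with trend; R 4.3.3), which was tested on simulated data, and p-values were adjusted by Benjamini-Hochberg over all windows. With 3 libraries against 3, a permutation test has 10 splits and cannot go below p = 0.1. Whole bodies were tested by exact permutation over 280 splits (smallest p 0.00357).

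Start sites, to the nearest kb, and gene ends other than the members' given starts are from general knowledge of hg19, since no hg19 annotation was used here. Members and lists were chosen with earlier results of these data known. Named in the other lists were up to 6 genes each: those called, then those without overlap between groups, then the highest and lowest. In bodies the 3 windows with the smallest p were named. Same-numbered libraries of the groups, with numbers from the titles, correlated at 0.138 to 0.611 in 9 of 9 pairs after group means were removed. Differently numbered libraries correlated at −0.612 to 0.203, so the ranges overlap. All same-numbered pairs were above 0.1, the level set for this, so the numbers were taken to pair the samples. The main limma fit did not use that pairing. Alternatives were the 20000 strongest peaks, peaks with −log10 q of at least 5, scaled shares, the replicate block, other flanks, 5 kb windows, no minimum share and leaving out each library. The exact test on start windows was added after seeing the data.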

Additional observations from a re-analysis of the deposited data

How the results depend on the processing

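Of 220 alternative values for the 16 main results, 209 kept their direction and side of the threshold, 9 fell below it, 1 rose past it, 1 count moved and 0 reversed. For the 27 differences at single start windows, none of them called, 54 of 384 alternative values changed sign, and 1 became called. The number of start windows called in CDK8KD against Control was 0 and ran from 0 to 1 in leaving out a library (1, SNAI1, without Control replicate 1). The replicate block left the counts of start and body windows called at 0 in every comparison. It changed 2 exact tests of bodies: SNAI1, with 57.6% of variance between groups, had p = 0.111, and FN1, with 30.2%, had p = 0.0278. For the SNAI1 body the share of variance was 22.6% with −log10 q of at least 5 and 25.0% with the 20000 strongest peaks (exact p = 1.0 in each), 57.9% with scaled shares (exact p = 0.05), and 53.4% to 61.4% in leaving out each library. Genes with a start peak in all libraries numbered 5 with the stricter peaks, 7 with 2.5 kb and 8 with 10 kb flanks (CDH2 added), and 8 without Control replicate 3 (TWIST1 added). TWIST1 and CDH2 fell under the minimum share in some alternatives and then gave no value.

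Over all windows, calls in CDK19KD against Control went from 43 higher and 18 lower to 1 and 1 with the replicate block, 1 and 0 with scaled shares, 198 and 192 with the 20000 strongest peaks, and 217 and 988 without Control replicate 1. In CDK8KD against Control they went from 493 and 67 to 141 and 11 with scaled shares, 12 and 3 without CDK8KD replicate 3, and 734 and 1328 without Control replicate 1. In CDK19KD against CDK8KD they went from 175 and 609 to 129 and 209 with scaled shares, 9 and 33 without CDK8KD replicate 3, 17 and 47 without CDK19KD replicate 3, and 24 and 95 without CDK19KD replicate 1. The cause was not tested.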
